A study of Homo sapiens with 8 samples.

Results

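The 9 genes described here carry the signal from insulin and growth factor receptors through phosphoinositide 3-kinase (PI3K) and AKT to mTOR and the FOXO transcription factors. They were chosen by their symbols (IRS1, IRS2, PIK3CA, PIK3R1, PIK3IP1, AKT1, MTOR, FOXO1 and FOXO3) among the 23228 genes listed in each library, all 9 were found, and all 9 were among the 13694 genes that passed the filter on low counts. Their mRNA was measured by RNA-seq in BT-549, an established mesenchymal line of triple-negative breast cancer (TNBC), the breast cancer subtype without estrogen receptor, progesterone receptor or HER2 amplification. Cells received vehicle (DMSO), EC359 at 100 nM, vorinostat at 10 µM, or EC359 and vorinostat together at those doses, each for 24 h, with 2 libraries in each of the 4 groups and 8 in all. EC359 is an inhibitor of LIFR, the receptor of the cytokine LIF, and vorinostat (SAHA) is an inhibitor of histone deacetylases (HDACi). The study asked how the LIFR inhibitor alters the response of TNBC cells to an HDACi. The groups are treatments of a single cell line, and the labels do not say whether the 2 libraries of a group came from separate cultures, so the p-values measure only the spread between these libraries.

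In this pathway an activated receptor phosphorylates the adaptors IRS1 and IRS2, which dock the PI3K heterodimer at the membrane. The lipid made there by PI3K recruits AKT, and AKT phosphorylates FOXO factors, which then leave the nucleus, and relieves the brake on mTOR complex 1 (mTORC1), which drives protein synthesis and restrains autophagy. FOXO factors in the nucleus are known to raise the transcription of receptor and adaptor genes, IRS2 among them, and mTORC1 is known to feed back on IRS1, so that the pathway regulates its own input. None of these protein events was measured here, and the values below are mRNA levels.

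On GRCh37, the assembly that hg19 shares, the genes lie at chr2:227596028-227664536 on the minus strand (IRS1), chr13:110405042-110438930 on the minus strand (IRS2), chr3:178865902-178957881 on the plus strand (PIK3CA) and chr5:67511568-67597649 on the plus strand (PIK3R1). PIK3IP1 lies at chr22:31677580-31688520, AKT1 at chr14:105235686-105262088, MTOR at chr1:11166592-11322613 and FOXO1 at chr13:41129804-41240778, all on the minus strand, and FOXO3 at chr6:108881038-109005977 on the plus strand. All are protein-coding genes, and their values are reads on exons of the whole gene, so that isoforms were not told apart. The promoters of 4 genes are given below, to show the sequences of genes whose response to the same drugs differed. PIK3R1 and AKT1, which also changed, are not printed, and their windows held no match to the motifs named below. Each is the RefSeq window of 300 bases on GRCh38.p14, from 250 bases before the start site to 50 after it, written 5′ to 3′ on the strand of the gene. The windows are chr13:109786534-109786833, minus strand, for IRS2, chr2:226799771-226800070, minus strand, for IRS1, chr3:179148107-179148406, plus strand, for PIK3CA and chr13:40666592-40666891, minus strand, for FOXO1. Capitals mark a motif match.
IRS2: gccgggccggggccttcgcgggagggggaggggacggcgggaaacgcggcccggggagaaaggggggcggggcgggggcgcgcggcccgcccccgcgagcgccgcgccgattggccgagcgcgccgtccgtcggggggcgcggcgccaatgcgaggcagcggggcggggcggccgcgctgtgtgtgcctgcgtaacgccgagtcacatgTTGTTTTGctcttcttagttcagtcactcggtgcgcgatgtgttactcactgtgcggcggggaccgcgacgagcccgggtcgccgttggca
IRS1: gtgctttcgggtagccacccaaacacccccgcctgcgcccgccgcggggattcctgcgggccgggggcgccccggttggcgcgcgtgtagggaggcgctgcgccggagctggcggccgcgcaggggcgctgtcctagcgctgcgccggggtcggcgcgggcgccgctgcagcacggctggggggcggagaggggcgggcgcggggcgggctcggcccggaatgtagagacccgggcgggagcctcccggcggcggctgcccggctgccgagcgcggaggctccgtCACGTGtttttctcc
PIK3CA: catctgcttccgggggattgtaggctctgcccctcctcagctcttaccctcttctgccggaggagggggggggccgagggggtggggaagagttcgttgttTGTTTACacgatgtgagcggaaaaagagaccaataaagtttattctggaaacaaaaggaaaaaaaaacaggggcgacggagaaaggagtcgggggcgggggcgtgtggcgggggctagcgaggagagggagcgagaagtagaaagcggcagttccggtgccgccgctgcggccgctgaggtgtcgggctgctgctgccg
FOXO1: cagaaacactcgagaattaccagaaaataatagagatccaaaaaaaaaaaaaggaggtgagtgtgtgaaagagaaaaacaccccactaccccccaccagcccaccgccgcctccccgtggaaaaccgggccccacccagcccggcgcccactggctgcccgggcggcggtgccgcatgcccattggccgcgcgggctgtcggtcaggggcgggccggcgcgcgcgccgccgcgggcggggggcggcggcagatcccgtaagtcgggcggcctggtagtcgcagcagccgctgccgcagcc
In IRS2 the capitals are the reverse complement of CAAAACAA, an insulin response element to which FOXO factors bind, with its first base 41 bases before the start site. In IRS1 they are the E-box CACGTG, 35 bases after the start site, and in PIK3CA the reverse complement of the FOXO core GTAAACA, 149 bases before it. The FOXO1 window held no match. Both strands of 17 windows of the 9 genes were searched for these motifs, for the STAT motif TTCNNNGAA and for the cyclic AMP response element TGACGTCA. GTAAACA stood in 2 of the 17 windows, those of PIK3CA and a window of PIK3IP1, CAAAACAA and CACGTG in 1 each, and the STAT motif and TGACGTCA in 0. Of 35116 RefSeq promoter windows of the same length, 3.42% held GTAAACA, 1.68% CAAAACAA, 7.66% the STAT motif, 7.26% CACGTG and 1.85% TGACGTCA. A match describes the letters of the window and is no evidence of binding.

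Between 19069450 and 24759041 reads were counted on genes in a library, and the SD over genes of the log2 difference within a group's library pair ranged from 0.312 (vorinostat) to 0.563 (EC359). Levels are given as CPM (the usual per-library share of reads, scaled by TMM), with library 1 before library 2. The labelled cell type was checked by its markers. The mesenchymal genes VIM, FN1, ZEB1, SPARC and CDH2 were at 22.8 CPM or more in every library, the receptor genes ESR1 and PGR at 1.02 CPM or less, and PTPRC, PECAM1 and CD3E, which mark leukocytes, endothelium and T cells, at 0.708 CPM or less. The epithelial genes EPCAM and CDH1 ranged up to 4.27 and 2.21 CPM, ERBB2 from 12.0 to 102 CPM and the liver gene ALB from 0 to 2.93 CPM. The share of uniquely aligned reads that fell on no gene was 11.0% to 12.6% in 6 libraries and 13.6% and 14.2% in the combination libraries, and the part of this in the differences below was not tested. A change in bulk RNA does not show whether fewer cells carried a transcript or each cell carried less of it.

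EC359 alone changed the adaptors and left the other members within the threshold. Of the 9 genes, 2 passed an adjusted p of 0.01 against vehicle (quasi-likelihood test of edgeR, Benjamini-Hochberg adjusted over all tested genes), IRS2 higher and IRS1 lower, while 7.82% of all tested genes passed, 3.81% higher and 4.01% lower. Vorinostat alone moved 6 of the 9, with PIK3R1, IRS2, FOXO1 and MTOR higher and PIK3CA and AKT1 lower, where 52.1% of all tested genes passed, 26.2% higher and 25.9% lower. The combination moved 5, with IRS2, FOXO1 and PIK3R1 higher and PIK3CA and AKT1 lower, against 56.4% of all tested genes, 29.7% higher and 26.7% lower, so that this count stood at the background. A passing gene with an absolute log2 fold change over 1 as well is termed called here. By that rule 1 member was called with EC359 (3.67% of all tested genes), 3 with vorinostat (30.1%) and 5 with the combination (34.8%). The 3 comparisons use the same vehicle libraries and are not independent of each other. The members were chosen with earlier results of these data known, so their counts cannot show enrichment. The median log2 fold change of the 9 genes after EC359, vorinostat and both was 0.04, 0.31 and 0.20 in turn, beside -0.02, 0.03 and 0.07 over all tested genes.

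**Figure D1:**
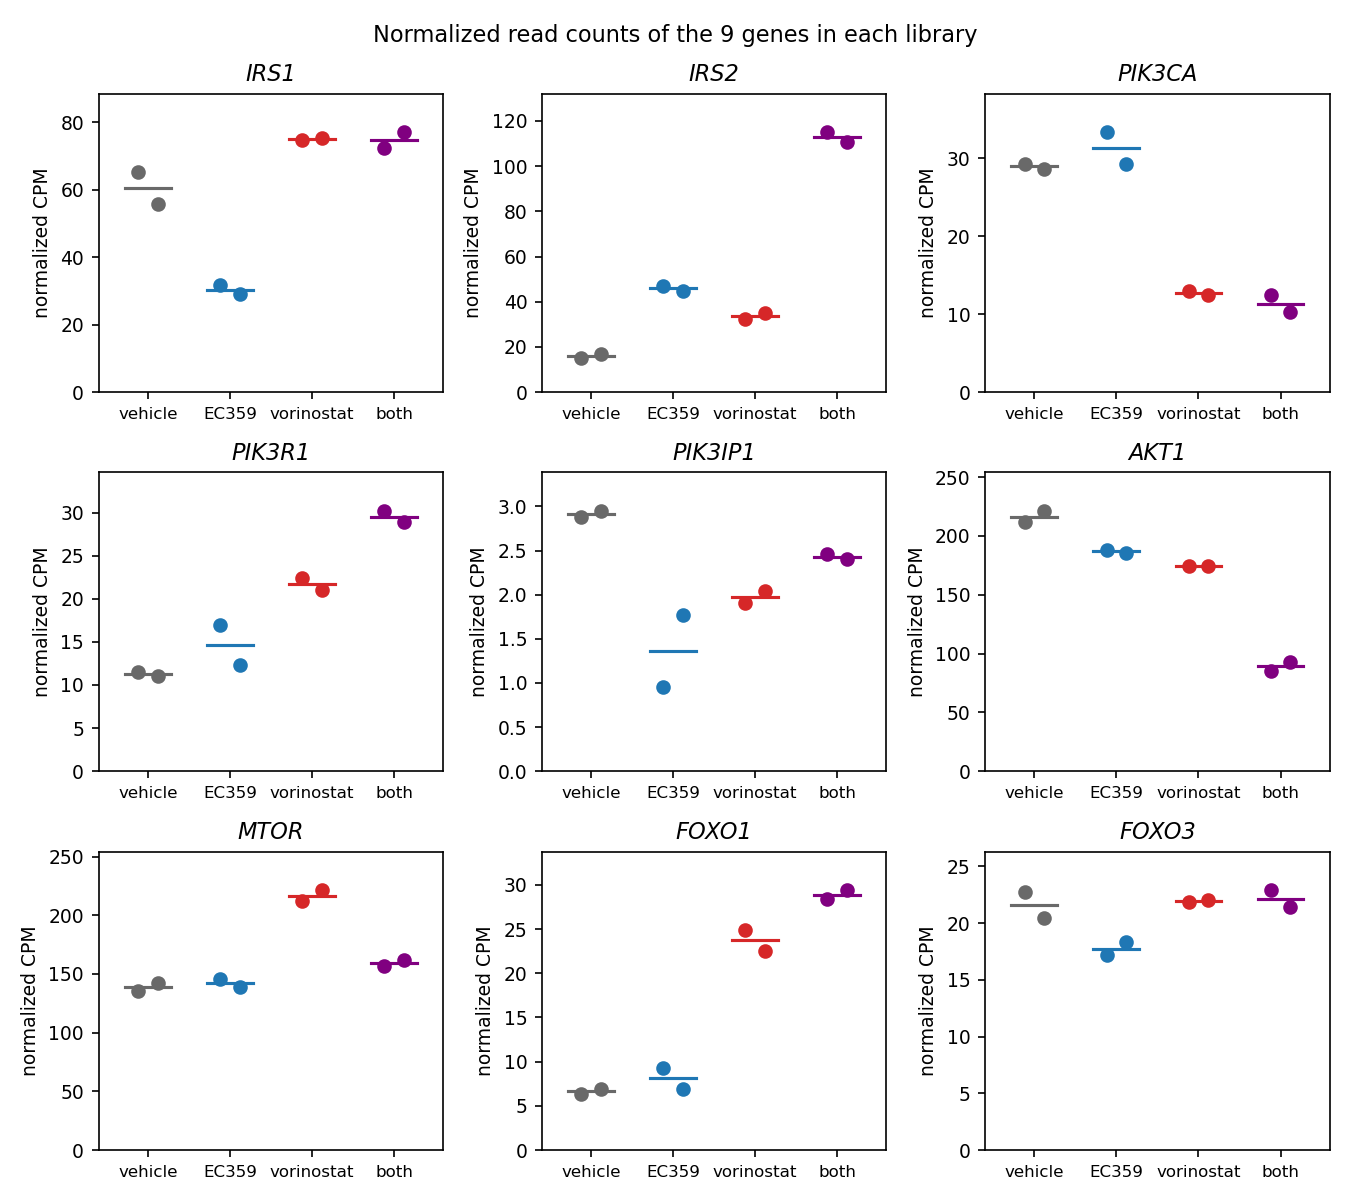
Level of each of the 9 genes in normalized CPM (vertical axis, from 0, a separate scale for each gene) in the 8 libraries. Points are libraries, lines are the means of 2, and both means EC359 with vorinostat. IRS2 is highest in the 2 combination libraries (114.9 and 110.8 CPM), where AKT1 is lowest (85.5 and 93.1 CPM).

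The 2 adaptors responded to EC359 in opposite directions. IRS1 and IRS2 are the main docking proteins of the insulin and IGF1 receptors, and they differ in tissue distribution and in how their genes are regulated. IRS2 stood at 15.0 and 17.0 CPM with vehicle, 47.0 and 44.9 with EC359, 32.6 and 35.1 with vorinostat, and 114.9 and 110.8 with the combination. The 4 groups did not overlap, and each drug alone lay between vehicle and the combination. EC359 raised IRS2 2.88-fold (log2 fold change 1.52 ± 0.11 SE, adjusted p = 2.8e-05, edgeR's quasi-likelihood test), and vorinostat raised it 2.12-fold (log2 1.08, adjusted p = 2.6e-05). With the combination it rose 7.06-fold over vehicle (log2 2.82, adjusted p = 1.0e-07), the largest change of the 9 genes in any comparison with vehicle. The combination also exceeded vorinostat alone by 1.74 on the log2 scale (adjusted p = 1.0e-05) and EC359 alone by 1.30 (adjusted p = 5.4e-06). The changes of the drugs alone added up to 2.61 on the log2 scale, and the departure from that sum, the interaction term of the model, was 0.21 (95% interval -0.12 to 0.55, adjusted p = 0.45).

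IRS1 stood at 65.2 and 55.8 CPM with vehicle, 31.7 and 29.1 with EC359, 74.8 and 75.4 with vorinostat, and 72.3 and 77.0 with the combination. The EC359 libraries were the lowest, and the vorinostat and combination libraries overlapped each other above vehicle. EC359 lowered IRS1 1.99-fold (log2 fold change -0.99 ± 0.11 SE, adjusted p = 4.0e-04), which did not pass when only the EC359 and vehicle libraries were fitted (adjusted p = 0.016). In the presence of vorinostat, EC359 left IRS1 at -0.01 on the log2 scale (95% interval -0.25 to 0.23, adjusted p = 0.96). The difference between these responses, the interaction, was 0.98 ± 0.15 (adjusted p = 0.0072), and 2.1% of all tested genes passed that test, 1.62% above the sum and 0.482% below it. Among the 9 genes 2 passed it, IRS1 above the sum of the single drugs and AKT1 below. The IRS1 interaction ranged from 0.86 to 1.09 over the alternatives, with adjusted p from 7.3e-05 to 0.077, and it no longer passed in 8 of 14, which were RLE scaling (0.94, adjusted p = 0.010), the replicate number as a block (adjusted p = 0.014) and leaving out any vehicle, vorinostat or combination library. For vorinostat alone and for the combination, IRS1 was 0.31 and 0.30 above vehicle on the log2 scale, neither past the threshold (adjusted p = 0.029 and 0.031).

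Since the members differ in length, levels of different genes were compared only per kilobase of merged exons. IRS2 made up 22.04% and 27.2% of the summed IRS1 and IRS2 level with vehicle, 64.6% and 65.5% with EC359, 34.8% and 36.4% with vorinostat, and 66.1% and 63.9% with the combination. Thus IRS1 was the more abundant adaptor transcript in all vehicle and vorinostat libraries and IRS2 in all libraries with EC359. The share was 65.0% in the mean of either EC359 group, but the levels behind it differed, with IRS1 at 3.04 CPM per kilobase under EC359 and 7.45 under the combination. With the length of the MANE transcript, the reference isoform, in place of merged exons, the means were 24.2%, 64.4%, 35.0% and 64.4%.

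**Figure D2:**
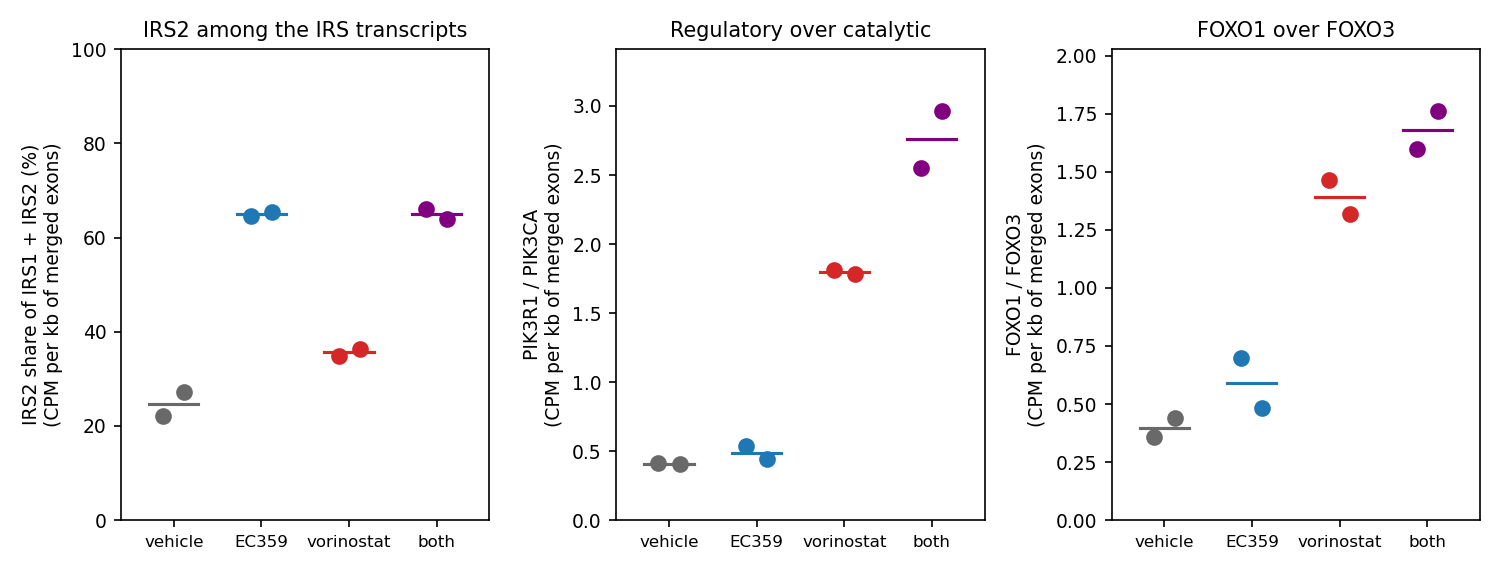
Relative levels of paired members in the 8 libraries, computed from CPM per kilobase of merged exons (points are libraries, lines the means of 2, vertical axes from 0). IRS2 is 65.0% of the adaptor transcripts in the mean of either EC359 group and 24.6% with vehicle. The PIK3R1 to PIK3CA ratio goes from 0.409 with vehicle to 2.76 with the combination, and the FOXO1 to FOXO3 ratio from 0.398 to 1.68, where FOXO3 counts are uncertain.

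The transcripts of 2 subunits of the PI3K heterodimer, PIK3CA and PIK3R1, moved apart under vorinostat. PIK3CA encodes the alpha catalytic subunit, and PIK3R1 the regulatory subunit that stabilizes the catalytic one and holds it inactive until an adaptor binds. PIK3CA stood at 29.2 and 28.6 CPM with vehicle and 33.3 and 29.3 with EC359, but at 13.0 and 12.4 with vorinostat and 12.4 and 10.3 with the combination. All 4 libraries with vorinostat lay below all 4 without it. Vorinostat lowered PIK3CA 2.28-fold (log2 -1.19 ± 0.14 SE, adjusted p = 7.4e-05) and the combination 2.55-fold (log2 -1.35, adjusted p = 3.0e-05). EC359 changed it by 0.11 without vorinostat (adjusted p = 0.61) and by -0.16 with it (95% interval -0.49 to 0.16, adjusted p = 0.43). Of the reference PIK3CA transcript, 35.8% has a near-identical copy on chromosome 22. A further limit is that 3403 exon bases are shared with KCNMB3 on the opposite strand, which was counted at 12 to 51 reads. Reads that were not uniquely aligned, or that were ambiguous between genes, were left out of the gene counts, so PIK3CA may be undercounted.

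PIK3R1 stood at 11.5 and 11.0 CPM with vehicle, 16.9 and 12.3 with EC359, 22.4 and 21.0 with vorinostat, and 30.1 and 28.9 with the combination. The groups did not overlap, although the EC359 libraries lay far apart. PIK3R1 rose 1.93-fold with vorinostat (log2 0.95 ± 0.16 SE, adjusted p = 8.0e-04) and 2.62-fold with the combination (log2 1.39, adjusted p = 6.2e-05). The EC359 difference of 0.38 did not pass (adjusted p = 0.15), and it rested on which EC359 library was used, at 0.60 without library 2 (adjusted p = 0.0033) and 0.13 without library 1 (adjusted p = 0.59). Adding EC359 to vorinostat gave 0.44 (95% interval 0.09 to 0.80, adjusted p = 0.065). The ratio of PIK3R1 to PIK3CA, per kilobase, was 0.409 ± 0.00566 with vehicle, 0.489 ± 0.0669 with EC359, 1.80 ± 0.0184 with vorinostat and 2.76 ± 0.292 with both drugs (mean ± SD, n = 2). By this measure PIK3CA exceeded PIK3R1 in every library without vorinostat, and PIK3R1 exceeded PIK3CA in every library with it. The ratio describes these 2 genes and not all PI3K subunits. Of 8 other tested subunits, 5 passed higher with vorinostat and 0 lower (26.2% and 25.9% of all tested genes). Catalytic subunits were among those 5, such as the delta subunit PIK3CD (log2 0.55).

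PIK3IP1, a membrane protein that binds the catalytic subunit and inhibits it, had the fewest reads of the members, 23 to 63 in a library. Per kilobase of merged exons it stood above PIK3R1 with vehicle (0.765 against 0.689) and was the lowest member in the other groups. It stood at 2.88 and 2.94 CPM with vehicle, 0.948 and 1.78 with EC359, 1.90 and 2.04 with vorinostat, and 2.46 and 2.40 with the combination. Vehicle was highest and the EC359 libraries lowest, with a wide gap between them. No comparison with vehicle passed: the log2 difference was -1.11 ± 0.33 for EC359 (adjusted p = 0.050), -0.56 for vorinostat (adjusted p = 0.15) and -0.26 for the combination (adjusted p = 0.48). The EC359 difference was -1.60 without EC359 library 2 (adjusted p = 0.0053) and -0.71 without library 1 (adjusted p = 0.19).

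AKT1 fell with the combination beyond the sum of the single drugs. AKT1 is the serine/threonine kinase at the centre of the pathway, and by CPM per kilobase it was the most abundant of the 9 transcripts with vehicle, at 19.8 ± 0.556 (SD, n = 2), followed by MTOR at 10.4 ± 0.365. AKT1 stood at 212 and 221 CPM with vehicle, 188 and 186 with EC359, 174 and 174 with vorinostat, and 85.5 and 93.1 with the combination. The combination libraries were far below the other 6, which lay close together. The combination lowered AKT1 2.42-fold against vehicle (log2 -1.28 ± 0.09 SE, adjusted p = 1.9e-06), and the log2 difference was -0.96 from vorinostat (adjusted p = 1.0e-04) and -1.07 from EC359 (adjusted p = 6.3e-06). These 3 differences passed under every alternative tried. EC359 alone gave -0.21 (adjusted p = 0.13), and vorinostat alone gave -0.31 with an adjusted p of 0.0098, at the edge of the threshold, and did not pass in 12 of 15 alternatives. The interaction was -0.75 ± 0.12 (adjusted p = 0.0082). It ranged from -0.88 to -0.73 over the alternatives, with adjusted p from 7.6e-06 to 0.069, and no longer passed without a vehicle, a vorinostat or a combination library or with the replicate block (adjusted p = 0.018).

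MTOR, the kinase shared by mTORC1 and mTORC2, rose with vorinostat alone. It stood at 136 and 142 CPM with vehicle, 146 and 139 with EC359, 212 and 221 with vorinostat, and 157 and 161 with the combination. The vorinostat libraries were the highest, the combination libraries came next, and vehicle and EC359 overlapped. Vorinostat raised MTOR 1.56-fold (log2 0.64 ± 0.08 SE, adjusted p = 1.5e-04), and the combination was 0.20 above vehicle (95% interval 0.01 to 0.39, adjusted p = 0.064). The difference of the combination from vorinostat was -0.45 (adjusted p = 0.0050), which did not pass with the replicate block (adjusted p = 0.011) or without any vehicle, vorinostat or combination library (adjusted p = 0.016 to 0.054). The interaction of -0.48 did not pass (adjusted p = 0.046), although it did with DESeq2 (adjusted p = 0.0079) and without either EC359 library (adjusted p = 0.0096 and 0.0038).

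In the comparison of the combination with vorinostat, which asks what EC359 added, 3 of the 9 genes passed, IRS2 higher and AKT1 and MTOR lower, where 13.7% of all tested genes did, 8.45% higher and 5.26% lower. IRS2 alone was also called, as were 4.25% of all tested genes. In the comparison with EC359, which asks what vorinostat added, 6 passed, with PIK3R1, IRS1, IRS2 and FOXO1 higher and PIK3CA and AKT1 lower, where 55.8% of all tested genes did, 29.5% higher and 26.3% lower, and all 6 were called (33.7%). IRS1 was 1.29 higher on the log2 scale in that comparison (adjusted p = 8.7e-06). Thus IRS2 and AKT1 were the members that passed both comparisons of the combination with a single drug and the comparison with vehicle, in opposite directions. These 3 comparisons share the combination libraries, and the share of all tested genes that passed all 3 is not given here. PIK3CA, PIK3R1 and FOXO1 passed against vehicle and EC359 but not against vorinostat.

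**Figure D3:**
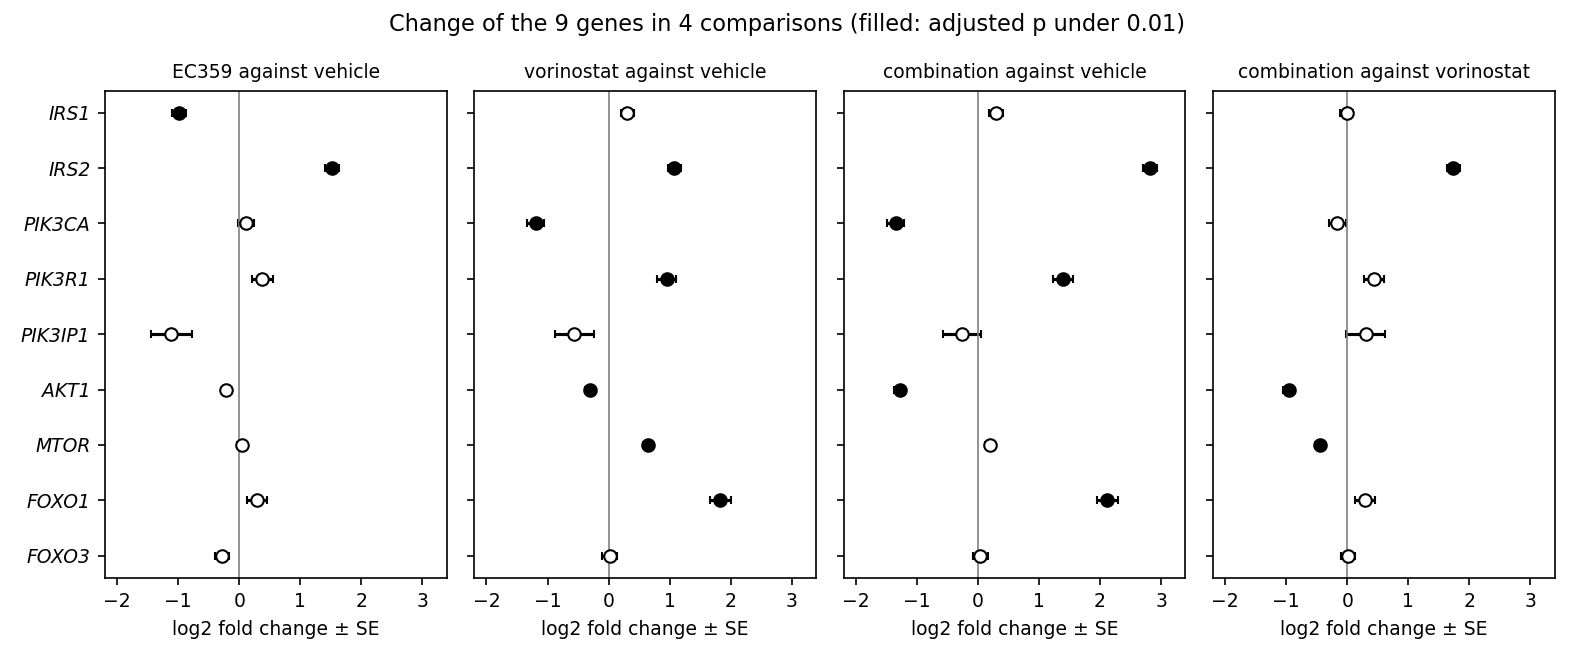
Log2 fold change of the 9 genes (points) with its standard error (bars) in 4 comparisons, filled where the adjusted p was under 0.01 (edgeR's quasi-likelihood test). EC359 moved IRS1 (-0.99) and IRS2 (1.52) apart, and against vorinostat the combination moved IRS2 (1.74), AKT1 (-0.96) and MTOR (-0.45).

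The FOXO genes differed from each other. FOXO1 and FOXO3 encode forkhead transcription factors that AKT keeps out of the nucleus and that control genes of cell cycle arrest, stress resistance and apoptosis. FOXO1 stood at 6.33 and 6.96 CPM with vehicle, 9.32 and 6.90 with EC359, 24.8 and 22.6 with vorinostat, and 28.4 and 29.4 with the combination. All libraries with vorinostat lay above all libraries without it, and vehicle and EC359 overlapped. Of the 5957 merged exon bases of FOXO1, 1352 are shared with a long noncoding RNA gene on the same strand. That gene was not counted on its own, so its reads could be part of the FOXO1 count. FOXO1 rose 3.57-fold with vorinostat (log2 1.83 ± 0.17 SE, adjusted p = 1.6e-05) and 4.35-fold with the combination (log2 2.12, adjusted p = 5.1e-06). EC359 gave 0.29 both alone (adjusted p = 0.29) and on top of vorinostat (adjusted p = 0.20), and the interaction was -0.01 (adjusted p = 0.99).

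FOXO3 stood at 22.8 and 20.5 CPM with vehicle, 17.2 and 18.4 with EC359, 21.9 and 22.1 with vorinostat, and 22.9 and 21.4 with the combination. The EC359 libraries were the lowest, and the other 3 groups overlapped. No comparison passed, and the vorinostat and combination differences from vehicle were 0.02 and 0.04 on the log2 scale (adjusted p = 0.87 and 0.80). These values are uncertain, because 99.4% of the 7296 bases of the reference FOXO3 transcript has a near-identical copy on chromosome 17, where FOXO3B lies. Reads that did not align uniquely, 9294551 to 11832359 in a library, were left out of the gene counts. How many of these came from FOXO3 is not known. FOXO3B was counted at 13.4 and 13.9 CPM with vehicle, 11.1 and 13.9 with EC359, 9.72 and 9.23 with vorinostat, and 21.3 and 14.3 with the combination.

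The other genes of the pathway were grouped in 9 lists holding 85 genes besides the members, of which 75 were tested, and INSR, SESN1 and SESN3 stand on more than 1 list. EC359 left 11 of them higher and 4 lower past the threshold (20.0%), vorinostat 38 higher and 16 lower (72.0%), and the combination 37 higher and 15 lower (69.3%). Of all tested genes, 7.82%, 52.1% and 56.4% passed in these comparisons. The lists were chosen with earlier results of these data known, so a higher share in them cannot show enrichment. The list counts below for the combination stand beside 29.7% of all tested genes that passed higher and 26.7% lower. The median log2 fold change of these genes was 0.09, 0.47 and 0.62, beside -0.02, 0.03 and 0.07 over all tested genes. The named genes are the 2 with the largest called change per list with the combination and those that passed the interaction, and AKT2 and RICTOR, which were chosen after their values were seen.

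Among receptors and adaptors, 3 of 6 tested genes passed higher with the combination and 1 lower. GAB2, an adaptor that binds the regulatory subunit of PI3K, went from 0.897 and 1.12 CPM with vehicle to 11.6 and 11.8 with the combination (log2 fold change 3.53, adjusted p = 2.6e-06), and EC359 alone raised it by 1.54 (adjusted p = 0.0054), which passed in 6 of 15 alternatives. GRB14, which binds the insulin receptor and inhibits it, rose by 3.05. With vorinostat alone GAB2 rose by 3.23 and GRB14 by 3.61, and neither passed in the combination against vorinostat. IGF1R, the receptor upstream of IRS1 and IRS2, stood at 56.2 and 56.3 CPM with vehicle, 58.5 and 47.6 with EC359, 80.9 and 75.0 with vorinostat, and 203 and 214 with the combination. The combination libraries were well above all others, at a log2 fold change of 1.89 over vehicle (adjusted p = 1.1e-06) and 1.42 over vorinostat, with an interaction of 1.5 (adjusted p = 0.0012).

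Of 8 tested PI3K subunits besides the members, 4 passed higher with the combination and 0 lower (29.7% and 26.7% of all tested genes). PIK3R4, the regulatory partner of the class III kinase, rose by 1.05 on the log2 scale and PIK3CD, the delta catalytic subunit, by 1.00. Vorinostat alone raised them by 0.8 and 0.55. PIK3R3, another regulatory subunit, stood at 162 and 166 CPM with vehicle, 63.5 and 63.0 with EC359, 301 and 318 with vorinostat, and 328 and 309 with the combination. The EC359 libraries were the lowest, and all libraries with vorinostat lay above all without it. EC359 changed it by -1.38 on the log2 scale (adjusted p = 1.4e-05), vorinostat raised it by 0.92, and the interaction was 1.42 (adjusted p = 3.1e-04), which passed under every alternative tried.

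Among the brakes on PI3K and AKT, 1 of 6 tested genes passed higher and 2 lower. INPPL1, the inositol phosphatase SHIP2, fell from 215 and 216 CPM with vehicle to 42.7 and 37.4 with vorinostat and 29.7 and 33.5 with the combination, a log2 fold change of -2.77 for the latter (adjusted p = 1.7e-07).

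Among the kinases related to AKT, 2 of 6 passed higher and 1 lower. SGK1, which shares substrates with AKT, FOXO factors included, stood at 168 and 161 CPM with vehicle, 192 and 175 with EC359, 730 and 735 with vorinostat, and 1589 and 1540 with the combination. It thus rose where AKT1 fell, by 3.25 on the log2 scale with the combination (adjusted p = 2.6e-08), with an interaction of 0.94 (adjusted p = 0.0021). PDPK1, the kinase that activates both, rose by 1.64 with the combination and by 1.57 with vorinostat alone. AKT2 fell from 172 and 173 CPM with vehicle to 71.6 and 74.5 with the combination (log2 -1.24, adjusted p = 2.7e-06), and its change with vorinostat alone was -0.69.

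Of the 8 partners of mTOR in its complexes, 3 passed higher with the combination and 5 lower. DEPTOR, which binds mTOR and inhibits it, rose from 1.09 and 1.26 CPM to 9.88 and 11.9 (log2 3.21, adjusted p = 2.1e-06). PRR5L, a partner of mTORC2, fell by 2.21 on the log2 scale. With vorinostat alone the changes were 3.37 for DEPTOR and -2.68 for PRR5L, and neither passed in the combination against vorinostat. RICTOR, the defining subunit of mTORC2, stood at 38.0 and 37.3 CPM with vehicle, 86.4 and 71.4 with EC359, 40.5 and 43.1 with vorinostat, and 77.3 and 72.3 with the combination. All libraries with EC359 lay above all libraries without it, and EC359 alone raised RICTOR by 1.07 (adjusted p = 3.2e-04).

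Among 18 genes that control mTORC1, 8 passed higher and 2 lower with the combination. SESN2, a sestrin that senses leucine and restrains mTORC1, stood at 24.1 and 25.7 CPM with vehicle, 65.0 and 79.1 with EC359, 68.2 and 70.1 with vorinostat, and 422 and 405 with the combination. Each drug alone gave similar levels, and the combination was 4.05 above vehicle on the log2 scale (adjusted p = 3.7e-08), with an interaction of 1.05 (adjusted p = 0.0054). The most changed genes of this list, DDIT4L and SESN3, also inhibitors of mTORC1 signaling, were almost absent with vehicle. DDIT4L had 0 and 1 reads with vehicle, 112 and 141 with vorinostat and 116 and 75 with the combination. Its ratio to vehicle was 251 with vorinostat and 208 with the combination (exact 95% counting intervals 44.6 to 9945 and 36.9 to 8256). SESN3 had 1 and 0 reads with vehicle, 77 and 95 with vorinostat and 53 and 27 with the combination. Its ratios were 170.5 (30.2 to 6773) and 87.1 (15.2 to 3483), where the intervals cover counting error only. Neither gene passed in the combination against vorinostat (adjusted p = 0.52 and 0.12, edgeR's quasi-likelihood test).

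Of 8 mTORC1 effectors, 3 passed higher and 2 lower with the combination. TFEB, a transcription factor of lysosome genes that mTORC1 holds in the cytoplasm, rose by 1.81 on the log2 scale. EIF4B, a translation initiation factor, fell by 1.03. Under vorinostat alone their changes were 1.73 and -0.88. FOXO4, the other FOXO gene tested, rose from 3.87 and 3.08 CPM with vehicle to 20.0 and 21.9 with vorinostat and 19.4 and 16.8 with the combination (log2 2.38 for the latter, adjusted p = 4.6e-06).

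Among 17 tested FOXO targets, 13 passed higher with the combination and 2 lower, with a median log2 fold change of 1.59, where 29.7% of all tested genes passed higher and 26.7% lower, with a median of 0.07. With EC359 alone 6 targets passed higher and 2 lower, with a median of -0.01. Of all tested genes 3.81% and 4.01% did, with a median of -0.02. With vorinostat alone 12 targets passed higher and 2 lower, with a median of 0.82. Of all tested genes 26.2% and 25.9% did, with a median of 0.03. SESN3, described above, and ERBB3, a receptor that recruits PI3K, had the largest changes. ERBB3 rose by 3.78 on the log2 scale with the combination and by 3.59 with vorinostat alone. All 4 targets that passed the interaction had a positive term, while against vehicle 3 rose and CDKN1B fell with the combination. GADD45A, a gene of the DNA damage response, stood at 32.1 and 34.9 CPM with vehicle, 78.4 and 72.1 with EC359, 62.6 and 60.2 with vorinostat, and 247 and 256 with the combination, with an interaction of 0.87 (adjusted p = 0.0065). CAT, which encodes catalase, changed with EC359 by -1.09 on the log2 scale but rose by 1.8 with vorinostat and by 1.96 with the combination. Its interaction was 1.25 (adjusted p = 7.5e-04). CITED2, a transcriptional coactivator, rose by 0.75 with vorinostat and by 1.87 with the combination. Its EC359 difference of -0.97 did not pass (adjusted p = 0.012), and the EC359 libraries lay far apart, at 371 and 228 CPM. The CITED2 interaction of 2.08 (adjusted p = 0.0039) includes that difference. CDKN1B, the cell cycle inhibitor p27 and a classical FOXO target, fell from 157 and 150 CPM with vehicle to 61.7 and 64.7 with EC359, 57.9 and 56.7 with vorinostat and 41.7 and 39.7 with the combination (log2 -1.91 for the last, adjusted p = 3.1e-07). Its interaction of 0.78 (adjusted p = 0.0087) means that this fall was smaller than the sum of the single drugs. Apart from PIK3R3, each interaction of a list gene named here failed to pass in some of the 14 alternatives, from 5 for CAT to 10 for CDKN1B.

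**Figure D4:**
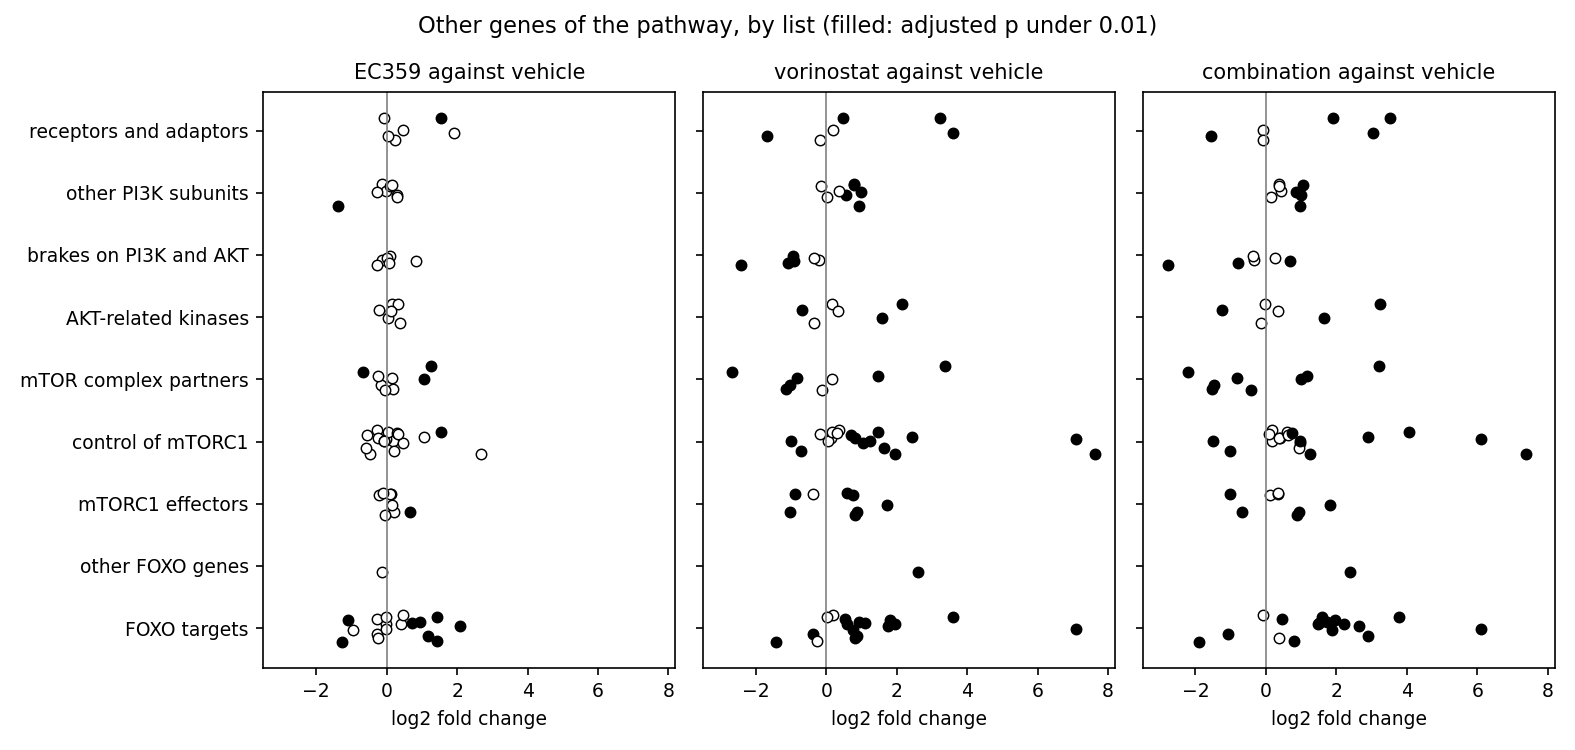
Log2 fold change against vehicle (horizontal axis) of the tested genes of each list, 1 point per gene, spread vertically for legibility and filled where the adjusted p was under 0.01. With EC359 most points are open. With vorinostat and the combination 72.0% and 69.3% of 75 genes passed, beside 52.1% and 56.4% of all tested genes (7.82% with EC359). The lists were chosen with earlier results of these data known. The points past 6 are DDIT4L and SESN3, each with 1 read in all in the vehicle libraries.

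For the 5 members called against vehicle, the genes with the most similar pattern were sought among 9975 others, by the root mean square difference of log2 CPM over the 8 libraries, centred on vehicle. Closest to IRS2 were ITPR1, which encodes a calcium channel of the endoplasmic reticulum, at 0.142, PHLDA1 at 0.160 and ZSWIM4 at 0.184. AKT1 was closest to SCARB1, the HDL receptor, at 0.0744, then ACTR1A at 0.101 and OPN3 at 0.105. For PIK3CA the nearest were SMARCAD1 (0.0825), XRCC5 (0.0832) and SLC25A43 (0.0854), and for PIK3R1 they were MOSPD2 (0.0703), ATP6V1G1 (0.0863) and COTL1 (0.0976). FOXO1 was closest to AFTPH (0.0909), SLC25A44 (0.104) and MICB (0.118).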

How the data were processed

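Per the labels and the study's methods, the authors sequenced 50 bp single-end TruSeq reads, aligned them to hg19 with TopHat2 2.0.8b and counted them on RefSeq genes with HTSeq, whose version and strand setting are not given in the sources used here. The deposited values are raw counts per gene symbol, without normalization. Summary lines were left out. Genes were kept by filterByExpr, scaled by TMM and fitted with 1 mean per group in edgeR 4.0.16 (quasi-likelihood, R 4.3.3; common dispersion 0.0135, 4.98 prior degrees of freedom), with Benjamini-Hochberg adjustment over the 13694 tested genes. A gene passed at an adjusted p under 0.01, and was called with an absolute log2 fold change over 1 as well. The members and gene lists were chosen with earlier results of these data known. Of 95 list symbols, members included, 94 were matched. Named list genes followed the rule given with them, and similar genes needed an average log2 CPM of at least 3. The labels do not say whether libraries of the same number were paired. Correlations over genes of the deviations from the group mean were -0.173 to 0.231 between groups, which cannot settle it. Copies were sought with BLAST 2.17.0 at 96% identity, and lengths came from GENCODE 44 lifted to GRCh37. Alternatives included DESeq2 1.42.0, RLE and total-count scaling, other filters and thresholds, and leaving out each library. The procedure was tested on simulated data.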

Additional observations from a re-analysis of the deposited data

Results flagged for a closer look

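The effect of EC359 differed with and without vorinostat, by the interaction term of edgeR's quasi-likelihood model, for 2 of the 9 members and 8 of the 75 other pathway genes tested, where 2.1% of all tested genes passed. Members and lists were chosen with earlier results of these data known, so these counts cannot show enrichment. The departure from the sum of the single drugs was 0.98 for IRS1 and -0.75 for AKT1 on the log2 scale. Among the other genes it was 1.5 for IGF1R, 1.42 for PIK3R3, 0.94 for SGK1, 1.05 for SESN2, 0.78 for CDKN1B, 0.87 for GADD45A, 1.25 for CAT and 2.08 for CITED2. PIK3R3 passed under all 14 alternatives, IRS1 under 6 and AKT1 under 7.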

How the results depend on the processing

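Of 24 member differences that passed, none reversed in 358 alternative values and 36 values, of 6 differences, no longer passed. Among 30 that did not pass, 14 of 443 values passed and 22 reversed. For the named list genes, 84 of 772 values, of 13 differences, no longer passed and 0 reversed. Requiring a log2 fold change over 1 left 1 member under EC359, 3 under vorinostat and 1 in the combination against vorinostat. The interaction kept 1 member with RLE scaling and 0 with the replicate block, and 0 to 3 when a library was left out. For EC359, the 2-group fit passed 1 member, and leaving out a library passed 2 to 4 (4 without EC359 library 2). Reversed values did not pass. For FOXO3 they lay in the combination against vehicle (-0.04 with total counts, 0 without the filter, -0.06 to 0.11 with a library left out). They also lay in its combination against vorinostat (-0.02 with DESeq2 and RLE, -0.08 with total counts, -0.03 without the filter, -0.07 to 0.02) and in vorinostat against vehicle (-0.06 to 0.09). For the interaction they lay in PIK3R1 (-0.01 with total counts, -0.15 to 0.32) and FOXO1 (0 with the replicate block, -0.21 to 0.23). The reversed values furthest from 0 were 0.23 for FOXO1 without EC359 library 1 and -0.15 for PIK3R1 without EC359 library 2. The cause was not tested. With a library left out, the lone library of its group was assumed to vary like the other groups. Over all genes, EC359 passed 1071, with DESeq2 1664 and with 2 groups 243, the combination against vorinostat 1877 and 4315 with 2 groups, and the interaction 288, 713 with DESeq2 and 189 with the replicate block. With a library left out these counts ran from 350 to 3766 (without EC359 library 2), 349 to 4574 and 56 to 1437. The labels do not say whether libraries of the same number share a batch. A crossed block, added after seeing the data, passed 477 for the interaction. Precision is limited by 2 libraries a group and, for PIK3IP1, by its low counts.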
